A study of Mus musculus with 2 samples.

Results

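The endocytic and lysosomal genes Ctsb, Ctsc and Lrp1 are 3 of the 500 genes measured in 2 mouse liver sections by MERFISH, an imaging assay in which each RNA molecule is identified in place by a barcode of fluorescent signals. The 3 genes had been picked for their higher level in macrophages, so their levels by cell group are described here without a test. Both sections are labelled as replicates 1 and 2 of a single liver group tagged 2d, a tag that was not interpreted. No strain, genotype, age or treatment is labelled, and the labels leave unsaid if separate animals gave the sections. No treatment was assigned, because the series' design text, on treated animals bearing metastases, and the labels differ.

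Material taken up at the cell surface travels through endosomes to the lysosome, where proteases break it down. Lrp1 encodes a large endocytic receptor of the LDL receptor family that takes up many ligands, among them protease complexes and lipoprotein remnants, and it is known in hepatocytes as well as in macrophages. Ctsb encodes cathepsin B, a cysteine protease of the lysosome, and Ctsc encodes cathepsin C, also called dipeptidyl peptidase I, which removes dipeptides from protein ends and activates serine proteases of immune cells. Kupffer cells, the resident macrophages of the liver sinusoid, are rich in lysosomes and clear particles from the blood.

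In the RefSeq annotation of GRCm38.p6, Ctsb spans chr14:63122462-63145923, Ctsc spans chr7:88278024-88315861 and Lrp1 spans chr10:127538157-127621148, and all are protein coding. RefSeq promoter windows of 300 bases were found for 2 of the 3 genes and are shown because both genes were high in the same cells. The Ctsc window is chr7:88277835-88278134 on the plus strand and the Lrp1 window is chr10:127621099-127621398 on the minus strand, both written 5′ to 3′. Relative to the gene starts above, the Lrp1 window holds 250 bases before and 50 from the start on, and the Ctsc window 189 before and 111 from the start on. Capitals mark GAGGAA or its reverse complement TTCCTC, core letters of sites of PU.1, a transcription factor of the macrophage lineage.
Ctsc: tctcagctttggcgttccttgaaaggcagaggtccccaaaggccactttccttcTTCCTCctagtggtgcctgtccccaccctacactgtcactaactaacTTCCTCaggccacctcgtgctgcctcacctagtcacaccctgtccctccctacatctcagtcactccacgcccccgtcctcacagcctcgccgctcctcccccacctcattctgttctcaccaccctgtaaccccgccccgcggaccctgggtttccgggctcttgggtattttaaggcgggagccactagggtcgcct
Lrp1: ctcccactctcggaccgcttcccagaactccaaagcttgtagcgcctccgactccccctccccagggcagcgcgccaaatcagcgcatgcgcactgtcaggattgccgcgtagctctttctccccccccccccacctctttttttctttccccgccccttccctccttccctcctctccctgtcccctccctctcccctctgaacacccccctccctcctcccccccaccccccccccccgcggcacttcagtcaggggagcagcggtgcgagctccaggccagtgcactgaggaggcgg
These letters occurred 2 times in the Ctsc window and 0 times in the Lrp1 window, and 28.3% of all 32851 RefSeq promoter windows of this length held them. The GC box GGGCGG, in either orientation, occurred 1 time in each window and in 35.7% of all windows. The E-box core CACGTG, letters also read by the lysosomal regulator TFEB, occurred in neither window and in 7.15% of all. A match is a description of the letters and shows no binding.

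Section 1 held 26037 segmented cells and section 2 held 85929, with 0 cell identifiers in common. Cells with at least 10 gene counts and a volume of at least 50 were kept, which left 9209 cells (35.4%) with 390108 counts and 16290 cells (18.96%) with 299795 counts. Kept cells had a median of 27 counts in section 1 and 15 in section 2, so section 2 was the shallower. Cell groups were defined by counts of marker genes on the panel. The macrophage group, from Clec4f, Adgre1 and Csf1r, held 253 and 216 cells, the endothelial group 461 and 215, and the hepatocyte group 3732 and 10231. Hepatocyte cells were required to have 0 macrophage and 0 endothelial marker counts. The groups were not pure: macrophage-group cells carried hepatocyte markers at 1704 and 1614 counts per 10000 gene counts, against 2941 and 3297 in the hepatocyte group, and the part of this in the values below was not tested. Levels are given as counts per 10000 gene counts of a group, in section 1 and then section 2, with exact 95% Poisson intervals that cover counting error only. The number of probes per gene is unknown here, so counts of different genes are not compared as amounts of RNA.

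Ctsb and Lrp1 were read often and Ctsc seldom, as counts that depend on the probes as well as on the RNA. Ctsb took 20150 and 7255 counts in kept cells, the rank 4 and rank 7 of 500 genes. Lrp1 took 9181 and 3862 counts, ranks 8 and 12. Ctsc took only 280 and 151 counts, ranks 184 and 198. The most frequent of the 50 blank barcodes, which name no gene, took 268 and 410 counts and the median blank 28 and 6. At or above the Ctsc total lay 0 blanks in section 1 and 1 in section 2, and none reached Ctsb or Lrp1.

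All 3 genes were highest in the macrophage group in both sections, among 6 groups with at least 100 cells per section. The macrophage group held 4.87% and 1.53% of all counts in kept cells. It held 26.8% and 10.6% of the Ctsc counts, 10.1% and 4.38% of the Ctsb counts, and 10.4% and 3.03% of the Lrp1 counts. Levels are shares of a group's counts and not numbers of molecules per cell.

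Ctsc, the activator of immune serine proteases, had the largest ratios, taken against low levels in the other groups. Its level in macrophages was 39.5 (31.1 to 49.5) and 34.8 (19.9 to 56.5), from 75 and 16 counts. In hepatocytes it was 2.85 (2.02 to 3.89) and 2.40 (1.77 to 3.19), and in endothelial cells 6.10 (3.73 to 9.43) and 4.00 (0.484 to 14.4). Both macrophage values were above both hepatocyte values, which is a description, since the gene was chosen for this excess. The macrophage level was 13.9-fold (9.30 to 21.0) and 14.5-fold (7.67 to 26.0) that of hepatocytes, a mean log2 ratio of 3.83 ± 0.04 (SD, n = 2 sections). Against endothelial cells the ratio was 6.47 (3.91 to 11.2) in section 1. In section 2 it was 8.71 (2.05 to 78.1), resting on 16 against 2 counts. When a cell's own markers had to reach its hepatocyte marker counts, the mean fold over hepatocytes was 23.9 in place of 14.2 and that over endothelial cells 4.43 in place of 7.51.

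The folds of Ctsc rest on levels near those of blanks. In hepatocytes the highest blank stood at 7.30 and 8.48, above Ctsc, and the mean blank at 1.57 and 0.466, below it. The macrophage level of Ctsc was 5.41-fold and 4.10-fold that of the highest hepatocyte blank, which is less than the folds over hepatocyte Ctsc. The highest blank was also above Ctsc in erythroid cells of both sections, at 10.7 and 57.7, and in endothelial cells of section 2, at 15.98. In mesenchymal cells it equalled Ctsc in section 1, at 8.11, and exceeded it in section 2, at 6.21. Only in the macrophage group and the monocyte and neutrophil group was Ctsc above the highest blank in both sections. For monocytes and neutrophils in section 2 this rested on 3 Ctsc counts. The highest blank there, at 5.19, lay within the Ctsc interval of 1.61 to 22.8, so this excess is not resolved. In section 1, 17 blanks with at least 20 counts over both groups had macrophage over hepatocyte folds of at most 0.938. In section 2 only 3 blanks had that many counts, with folds of up to 2.13. Hepatocytes hold far more counts than macrophages, so this filter favours blanks with low folds, and the folds are a description only. Over endothelial cells the 2 blanks with at least 20 counts in section 1 had folds of 0.805 and 1.87. The monocyte and neutrophil group was the next highest, at 9.59 (6.47 to 13.7) and 7.79 (1.61 to 22.8), and its intervals overlapped those of the mesenchymal, erythroid and endothelial groups.

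Ctsb, the lysosomal cysteine protease, was counted in every group. Its macrophage level was 1071 (1025 to 1119) and 692 (618 to 772), which is 881 ± 268 over sections (SD, n = 2). In hepatocytes it was 343 (333 to 353) and 193 (187 to 200), the lowest of the 6 groups in both sections, with an interval overlapping that of mesenchymal cells in section 2. In endothelial cells it was 519 (494 to 544) and 318 (270 to 371). The macrophage level was 3.12-fold (2.96 to 3.29) and 3.58-fold (3.18 to 4.01) that of hepatocytes and 2.06-fold (1.94 to 2.20) and 2.18-fold (1.79 to 2.65) that of endothelial cells. Each of the 6 groups had a higher Ctsb level in section 1 than in section 2.

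The erythroid group, defined by markers of the red cell lineage, differed in Ctsb between the sections. Its level was 794 (771 to 817) in section 1 and 304 (270 to 341) in section 2. It was 1.53-fold (1.45 to 1.62) the endothelial level in section 1 and 0.956-fold (0.786 to 1.17) in section 2. The order of erythroid and endothelial cells was thus not the same in both sections. The erythroid group itself was not alike in them. Erythroid markers stood at 744 and 1695 per 10000 gene counts, and its median cell held 41 and 19 counts. Any part of this in the Ctsb levels was not tested. Mesenchymal cells, at 408 (384 to 434) and 206 (180 to 234), and the monocyte and neutrophil group, at 399 (377 to 422) and 231 (186 to 284), had overlapping intervals.

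Lrp1, the endocytic receptor, was counted in all 6 groups. Hepatocyte markers stood at 1911 and 1936 in the endothelial group and at 1385 and 1366 in the mesenchymal group. The part of hepatocyte transcripts in the Lrp1 levels of these groups was not tested. Its macrophage level was 502 (471 to 535) and 254 (210 to 305). In hepatocytes it was 249 (240 to 257) and 118 (113 to 123), and in endothelial cells 211 (195 to 227) and 110 (82.8 to 143). Mesenchymal cells stood at 252 (233 to 272) and 128 (108 to 150), and their intervals overlapped those of hepatocytes in both sections. The macrophage level was 2.02-fold (1.88 to 2.17) and 2.15-fold (1.77 to 2.59) that of hepatocytes and 2.38-fold (2.16 to 2.63) and 2.32-fold (1.67 to 3.25) that of endothelial cells. The hepatocyte ratio lay close to 2, and its mean was below 2 with at least 20 counts per cell (1.93), with marker genes left out of the totals (1.96) and in cells of 20 to under 40 counts (1.97). The Ctsb ratio over endothelial cells was likewise 1.92 after cells were thinned to 10 counts and 1.99 in cells of 20 to under 40 counts.

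**Figure D1:**
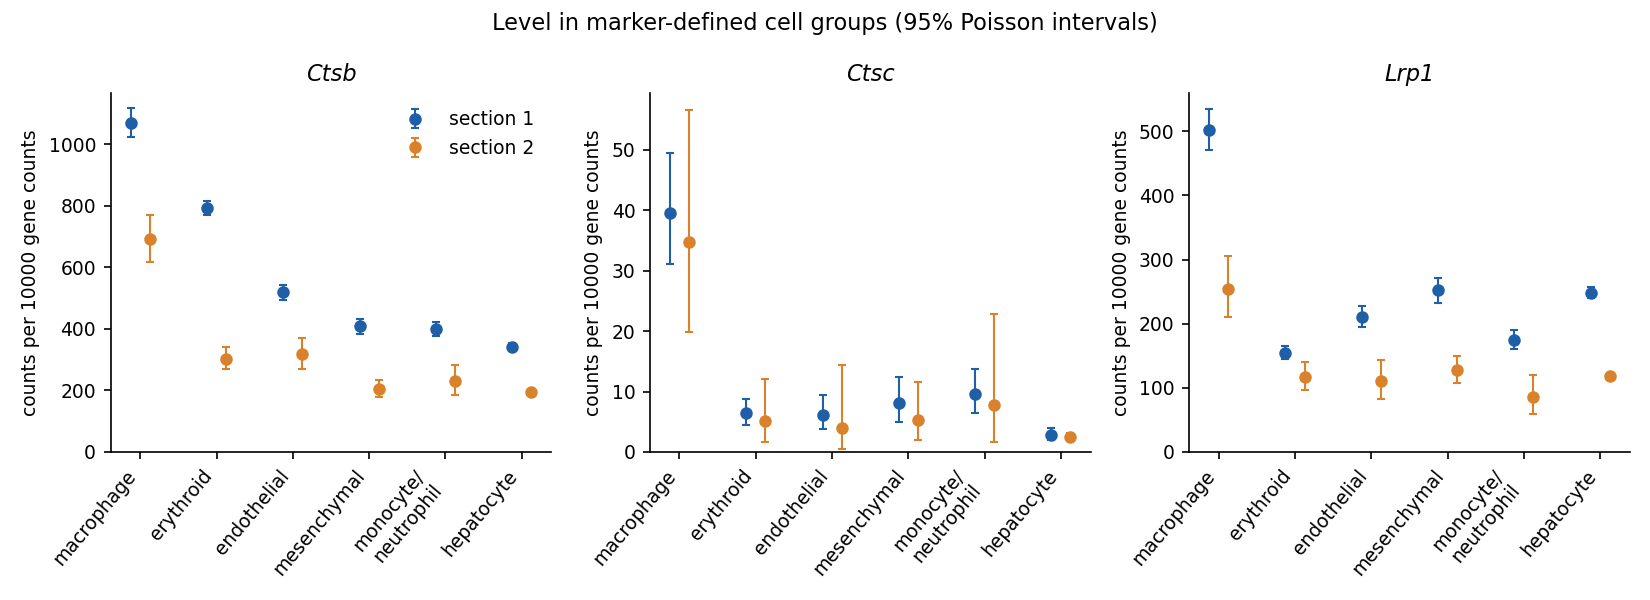
Counts per 10000 gene counts of Ctsb, Ctsc and Lrp1 (vertical axes, from 0, different in each panel) in 6 marker-defined cell groups of sections 1 and 2, with exact 95% Poisson intervals. The macrophage group is highest in every panel and section, and the Ctsb level of erythroid cells is 794 in section 1 and 304 in section 2.

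Against the rest of the panel the genes took different places. Of 294 genes that are no marker and had at least 50 counts over both groups and sections, 51 (17.3%) were at least 2-fold higher in macrophages than in hepatocytes in both sections, with Ctsb, Ctsc and Lrp1 among them. By mean log2 ratio Ctsc ranked 5, Ctsb 34 and Lrp1 68 of these 294. Against endothelial cells 20 of 155 genes (12.9%) reached 2-fold in both sections, and again the 3 genes did, with Ctsc at rank 2, Lrp1 at 21 and Ctsb at 26. The 3 genes were chosen for this excess, so nothing is read from their share.

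Few genes of the lysosomal and endocytic lists drawn up here were on the panel, and the lists do not cover every such gene on it. Over the panel 51 of 294 genes (17.3%) were at least 2-fold higher in macrophages than in hepatocytes in both sections. Of 37 lysosomal genes listed, 5 were on the panel, and 3 of the 4 with at least 50 counts reached this. These were Cd68, a glycoprotein of macrophage lysosomes (11.9-fold and 17.3-fold), Cst3, the cathepsin inhibitor cystatin C (3.31 and 3.43), and Glb1, lysosomal beta-galactosidase (2.21 and 4.45). Ctsw, a cathepsin of cytotoxic lymphocytes, had 0 macrophage counts in both sections. Of 39 endocytic genes listed, 9 were on the panel and 8 of these were no marker. Of the 4 with at least 50 counts, the mannose receptor gene Mrc1 (23.1 and 10.0), the Wnt co-receptor gene Lrp5 (2.40 and 2.30) and the sorting receptor gene Sorl1 (2.06 and 3.04) reached 2-fold in both sections. In section 2 Lrp5 and Sorl1 rested on 2 macrophage counts each. Lrp6, a close relative of Lrp5, stood at 1.40 and 4.58. The median of the mean log2 ratios was 1.73 over the 4 lysosomal and 1.44 over the 4 endocytic genes, against 0.35 over the panel. With 4 genes per list, no theme is read from these counts.

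The endothelial comparison set these genes apart differently. Of 3 lysosomal genes with enough counts only Cd68 was 2-fold higher in macrophages in both sections, at 3.02 and 2.99, and of 3 endocytic genes 0 were. Over the panel 20 of 155 genes (12.9%) reached 2-fold in both sections. Mrc1, which sinusoidal endothelial cells also carry, stood in macrophages at 0.585-fold and 0.871-fold its endothelial level, from 8 macrophage counts in section 2. The median of the mean log2 ratios was 0.97 over the lysosomal and -0.22 over the endocytic genes, against -0.03 over the panel. Lrp1 was above 2-fold on the same scale, as given above, but it was chosen for its macrophage excess. Nothing is therefore read from its difference from these genes.

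The share of cells with a count followed depth as well as level. Ctsb was found in 95.7% and 69.9% of macrophage-group cells, Lrp1 in 83.8% and 38.0%, and Ctsc in 23.3% and 6.94%. The median macrophage-group cell held 59 counts in section 1 and 17 in section 2, against 27 and 16 in hepatocytes. With every cell thinned to 10 counts, Ctsb was found in 62.1% (55.8 to 68.1, exact binomial) and 48.1% (41.3 to 55.0) of macrophages, against 30.1% and 18.1% of hepatocytes. Ctsc was found in 4.35% (2.19 to 7.65) and 4.63% (2.24 to 8.35) of macrophages, against 0.268% and 0.254% of hepatocytes, so the Ctsc shares of the 2 sections lay close together at equal depth. Lrp1 was found in 42.7% and 25% of macrophages, against 20.4% and 10.7% of hepatocytes.

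The genes were also counted together per cell, as a description. In section 1 all 59 macrophage-group cells with Ctsc also held Ctsb and 54 of them held Lrp1, and in section 2 it was 12 and 8 of 15. Over all macrophage-group cells the shares were already 95.7% and 69.9% for Ctsb and 83.8% and 38.0% for Lrp1, and deeper cells hold more of every gene. In section 1 the 3 genes were found together in 54 of 253 cells, and 5 cells held none of them. In section 2 the corresponding numbers were 6 and 43 of 216 cells.

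Levels were also split by the number of macrophage marker counts in a cell, here over all kept cells and per 10000 counts of other genes. These markers define the macrophage group, and the 3 genes were chosen for their excess there. The steps are therefore a description and no separate support. In section 1 Ctsb stood at 452 in cells with 0 marker counts, 619 with 1, 811 with 2, 1020 with 3 and 1171 with 4 or more. Lrp1 stood at 212, 265, 342, 409 and 505 over the same steps, so both genes were higher at every step. Ctsc stood at 3.93, 9.40, 22.3, 15.6 and 53.9, with overlapping intervals between 2 and 3 marker counts. In section 2 Ctsb stood at 221, 493, 706 and 861 with 0 to 3 marker counts, and the 17 cells with 4 or more gave 562 (314 to 927). Lrp1 stood at 124, 189, 256 and 307 with 0 to 3 marker counts and at 299.6 (129 to 590) with 4 or more. Ctsc stood at 3.74, 16.8 and 40 with 0 to 2, then at 58.4 from 4 counts and 37.5 from 1 count, so the last steps are poorly resolved.

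**Figure D2:**
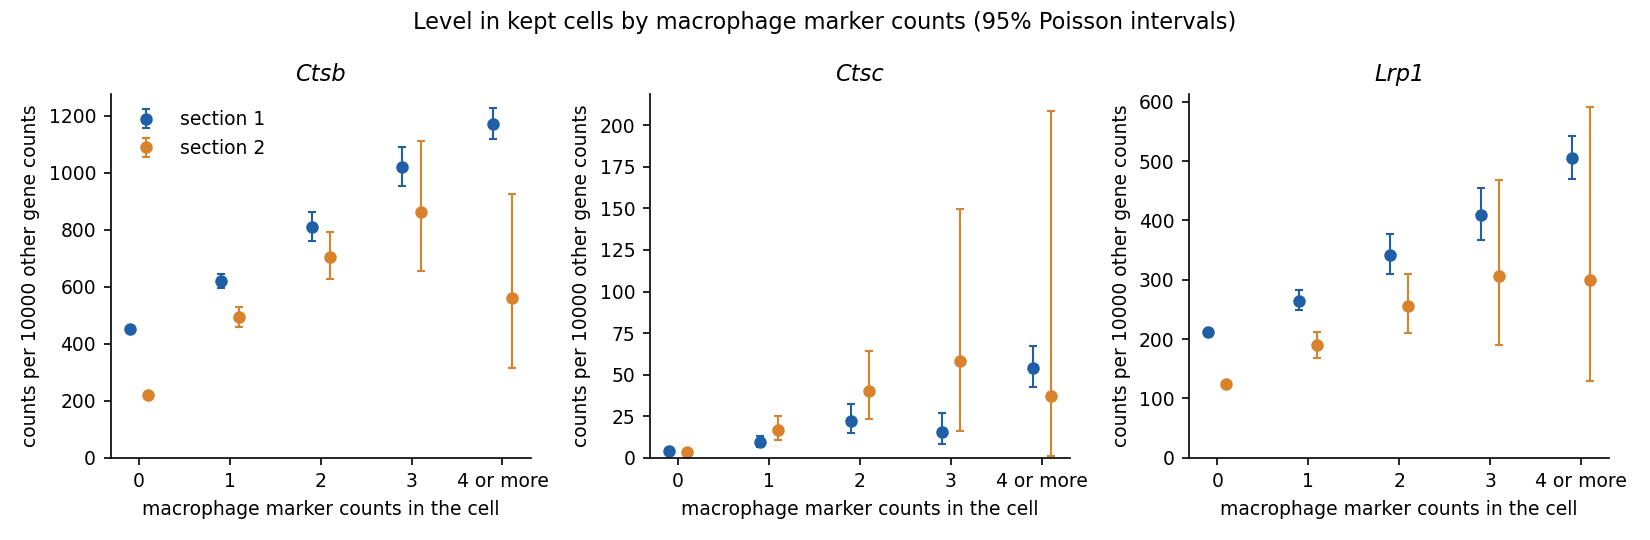
Counts per 10000 other gene counts of each gene (vertical axes, from 0) in kept cells split by their summed Clec4f, Adgre1 and Csf1r counts (horizontal axis), by section, with exact 95% Poisson intervals. In section 1 Ctsb goes from 452 to 1171 and Lrp1 from 212 to 505, and the intervals of section 2 are wide from 3 marker counts on.

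Genes with the most similar profile over the 6 groups were named by the mean of the Pearson correlations in each section, among 214 genes with at least 100 counts per section. With 6 points that share libraries and depth, these values only describe the order. For Ctsb they included Susd6 (0.94), Cdkn1a (0.87), Clec4f (0.84) and Adgre1 (0.81). For Ctsc they were Adgre1 (0.95), Cebpb (0.92), Csf1r (0.91), Clec4f (0.89) and Itgal (0.87). For Lrp1 they included Itgb5 (0.93), Junb (0.82), Clec4f (0.82) and Psme1 (0.76). Clec4f, Adgre1 and Csf1r define the macrophage group. Ctsb and Ctsc correlated at 0.80, Ctsc and Lrp1 at 0.74, and Ctsb and Lrp1 at 0.63. In the same order the values were 0.74, 0.71 and 0.44 in section 1 and 0.87, 0.77 and 0.82 in section 2. Ctsb, Ctsc and Lrp1 were chosen for their macrophage excess, which favours positive correlations with each other and with the macrophage markers. Nothing is therefore read from these correlations.

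Levels around macrophages were also described without cell outlines, from the distance of each transcript to the nearest transcript of Clec4f, Adgre1 or Csf1r. The genes were chosen for their macrophage excess, so this pattern is no separate support. Distances are in the files' own length units, which the headers do not name and which cell sizes place near µm. Within 2 units of such a transcript Ctsb made up 1309 (1255 to 1364) and 973 (888 to 1065) of every 10000 gene transcripts. At 5 to 10 units it made up 504 and 319, and beyond 50 units 357 (347 to 368) and 229 (222 to 237). Lrp1 stood at 559 (525 to 596) and 339 (290 to 395) within 2 units, at 244 and 143 at 5 to 10 units, and at 194 and 118 beyond 50 units. Ctsc stood at 46.6 (37.0 to 57.9) and 57.2 (38.0 to 82.7) within 2 units and at 20.05 and 24.2 at 2 to 5 units. At 5 to 10 units it was 4.63 and 9.78, and beyond 50 units 4.59 and 2.86. At 10 to 20 units Ctsb stood at 442 and 259.6, still above its level beyond 50 units, and Ctsc at 3.58 and 3.11, within the intervals of its level there.

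Transcripts that lay outside every segmented cell gave the same order, again as a description. Outside cells, Ctsb made up 985 and 943 of 10000 within 2 units and 300.3 and 193 beyond 50 units. Lrp1 made up 471 and 291 within 2 units and 206 and 104 beyond 50. Ctsc, from 11 and 8 transcripts, made up 28.2 and 62.8 within 2 units, against 4.34 and 1.72 beyond 50.

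**Figure D3:**
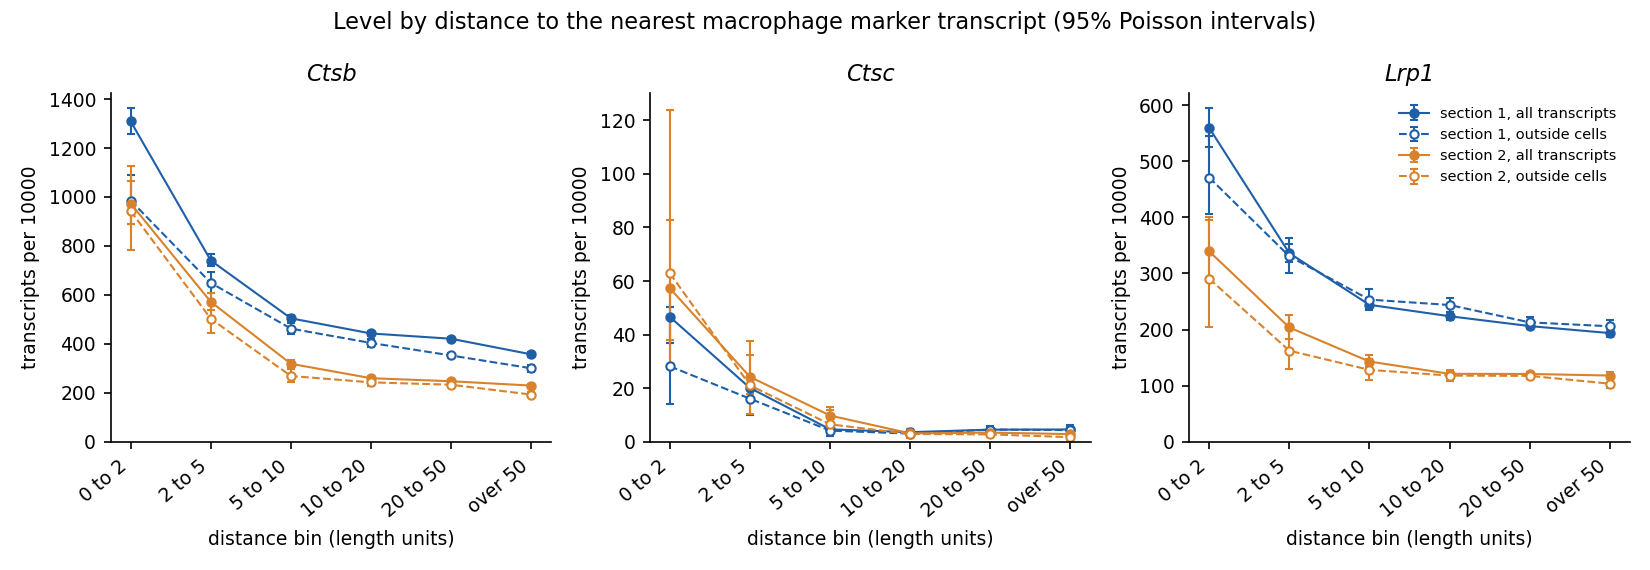
Transcripts of each gene per 10000 gene transcripts (vertical axes, from 0) in bins of distance to the nearest Clec4f, Adgre1 or Csf1r transcript (horizontal axis, unequal bins), for all transcripts and for those outside segmented cells, with exact 95% Poisson intervals. In both sections the first bin is highest, and Ctsc within 2 units is 46.6 and 57.2 against 4.59 and 2.86 beyond 50 units.

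As a share of its own transcripts, Ctsc was the gene most tied to macrophage markers of the 3. Of its transcripts, 38.8% and 22.0% lay within 5 units of one, rank 4 of 358 and rank 1 of 292 genes with at least 100 transcripts that are no marker. For Ctsb the shares were 17.5% and 8.06% and for Lrp1 15.7% and 6.02%, against panel medians of 8.32% and 3.74%. The highest blank barcode reached 8.91% and 4.95%. The 3 genes were chosen for their macrophage excess, so nothing is read from these shares and ranks. Around endothelial markers Ctsb stood at 583 and 323 within 2 units and at 388 and 242 beyond 50, and Lrp1 at 246 and 127 and at 206 and 120, a smaller range than around macrophage markers. Around erythroid markers the sections differed again for Ctsb, with 792 (762 to 822) within 2 units and 268 (251 to 285) beyond 50 in section 1, against 334 (297 to 375) and 233 (223 to 243) in section 2.

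Over squares of 50 units, Ctsb was more patchy than most genes. Moran's I, which is near 0 for a level scattered at random and higher where neighbouring squares are alike, was 0.188 and 0.0755 for Ctsb, rank 14 of 358 and 33 of 292. Lrp1 had 0.132 and 0.0218, ranks 25 and 93, and Ctsc 0.0157 and 0.0206, ranks 221 and 99. The highest blank reached 0.212 and 0.185, above all 3 genes, so no Moran's I here exceeded that of the patchiest blank. Of all Ctsb transcripts 33.3% and 30.9% lay outside cells, of Ctsc 31.4% and 25.9%, and of Lrp1 40.5% and 32.1%. The panel medians were 38.8% and 31.3%. Ctsb and Ctsc were below them in both sections and Lrp1 above, with Ctsc at rank 272 of 358 and 241 of 292.

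Within hepatocytes none of the 3 genes passed the test along the lobule. Position was scored from pericentral (Glul, Cyp2e1, Gulo) and periportal (Pck1, Ass1, Hsd17b13) landmark counts of neighbouring hepatocytes within 50 units, and counts summed over 3 equal bins were compared, pericentral minus periportal, with section as a block. Ctsb stood at 386, 416 and 446 from the periportal to the pericentral bin in section 1 and at 196, 199 and 185 in section 2. Lrp1 stood at 229, 254 and 256 and at 116, 118 and 116, so section 2 was flat for both. The log2 change was 0.10 for Ctsb (SE 0.08, edgeR adjusted p = 0.601) and 0.12 for Lrp1 (SE 0.08, edgeR adjusted p = 0.553). For Ctsc, with 3 to 17 counts per bin, it was 0.55 (SE 0.52, edgeR adjusted p = 0.685). Over the panel 12 of 254 genes (4.72%) passed at an adjusted p under 0.05, 10 higher pericentrally and 2 lower.

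Hepatocytes next to macrophages did not differ detectably in these genes. Ctsb stood at 390 (354 to 428) within 20 units of a macrophage and at 338 (326 to 349) beyond 50 units in section 1, and at 191 (166 to 219) and 195 (188 to 202) in section 2. Lrp1 stood at 241 and 246 in section 1 and at 120 and 117 in section 2. The log2 changes were 0.11 for Ctsb (SE 0.18), 0.13 for Ctsc (SE 0.72) and 0.01 for Lrp1 (SE 0.16), each with an edgeR adjusted p of 0.995. Of 276 genes 0 (0%) passed with edgeR and 0 with DESeq2, and 6 had an unadjusted edgeR p under 0.05.

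Macrophages with and without Clec4f, a lectin restricted to Kupffer cells in mouse liver, were compared next. Of the macrophage-group cells 78 of 253 and 94 of 216 held a Clec4f count. Ctsb stood at 1039 with and 1088 without it in section 1, and at 691 and 692 in section 2. Lrp1 stood at 477 and 515 and at 241 and 264. Ctsc stood at 41.4 and 38.5 and at 31.4 and 37.2. The log2 changes were -0.12 for Ctsb (SE 0.06) and -0.19 for Lrp1 (SE 0.09), both with an edgeR adjusted p of 0.565, and -0.03 for Ctsc (SE 0.31, edgeR adjusted p = 0.982). Without TMM scaling the changes of Ctsb and Lrp1 were smaller, at -0.065 and -0.125. Each section's own change was -0.058 and 0.050 for Ctsb and -0.104 and -0.080 for Lrp1. Of 81 genes 0 (0%) passed with edgeR and 0 with DESeq2, 6 had an unadjusted edgeR p under 0.05, and 2 passed without TMM scaling.

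Macrophages within 20 units of an erythroid cell, of which there were 51 and 16, were too few for a close comparison. Ctsb stood at 1083 near and 1068 away from erythroid cells in section 1 and at 659 and 694 in section 2. The log2 changes were -0.07 for Ctsb (SE 0.29), -0.26 for Ctsc (SE 0.70) and 0.04 for Lrp1 (SE 0.31), each with an edgeR adjusted p of 0.988. Of 84 genes 0 (0%) passed with edgeR and 0 with DESeq2, and 3 had an unadjusted edgeR p under 0.05. A p that misses the threshold does not show that levels were equal, and the SEs above give what these sections could resolve.

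**Figure D4:**
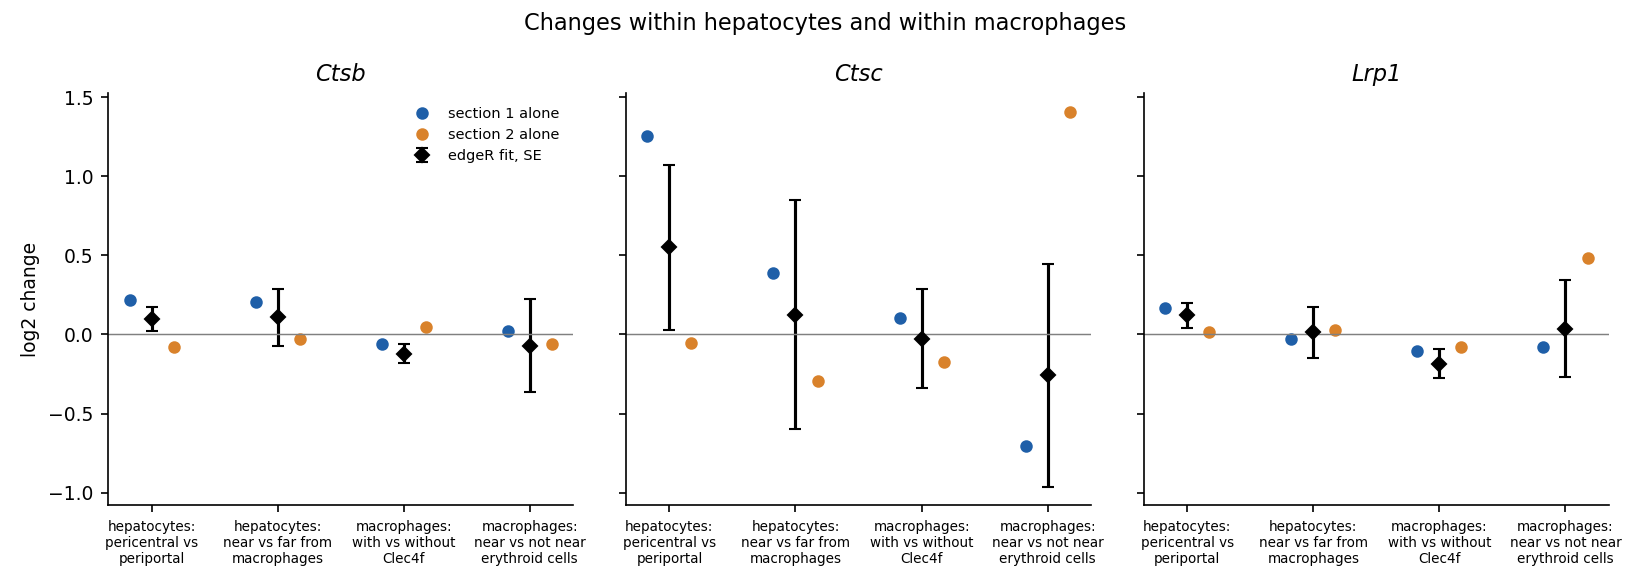
Log2 change of each gene (vertical axis) in 4 contrasts within hepatocytes or within macrophages, as the edgeR fit with its SE (diamonds) and as each section's own difference of log2 levels, with a prior count of 2 and no TMM scaling (circles). For Ctsb and Ctsc the sections lie on opposite sides of 0 in all 4 contrasts, and no change of the 3 genes passed the test.

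Along the lobule, macrophages and endothelial cells had fewer than 100 cells per bin and were not tested. From the periportal to the pericentral bin, of 34 or 35 cells each, macrophage Ctsb stood at 887, 1021 and 1051 in section 1. In section 2, with 63 or 64 cells per bin, it stood at 718, 645 and 761. Lrp1 in macrophages stood at 476, 412 and 487 and at 225, 335 and 198, with no order shared by the sections.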

How the data were processed

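MERFISH had been run on frozen mouse liver sections on Vizgen slides, per the labels' protocols. Each deposited table lists, per the file headers, unnormalized counts of 500 genes and 50 blank barcodes, with a row for every segmented cell. The authors also deposited cell volumes, a signal that is never negative, and positions of cells and transcripts; no unit of length is named. Decoding and segmentation software is not given in the sources used here. Blank barcodes took 0.910% and 0.390% of counts and were left out of totals.

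The 3 genes, the marker and gene lists and the tests were chosen with earlier results of these data known. A cell joined a group with at least 2 counts of its markers and more than of any other non-hepatocyte group, and the hepatocyte group with at least 3 hepatocyte marker counts, 0 macrophage and endothelial ones and at most 1 of any other group. No doublet caller was run. Cells are not replicates: counts were added up within each bin of a section. Genes with at least 50 counts entered the quasi-likelihood test of edgeR 4.0.16, with TMM scaling, blocked by section and Benjamini-Hochberg adjusted at 0.05. DESeq2 1.42.0 was an alternative. The edgeR test was also run on simulated data with 50 changed genes, a dispersion of 0.01 and the same changes in both sections. That setting does not show how the test performs where the sections differ, as here. With section as a block, level differences between the sections are removed. P-values then set the change between bins against how far it differed between these 2 sections, which may be technical. The section number pairs the bins because they were cut from the same section. The SE was derived from the log2 change and its F statistic. Marker genes that define a contrast were left out of its test. Named genes are the 3 genes, for each the 5 most similar genes, and the panel genes of both lists; some similar genes are not reported here. Python 3.11.15 and scipy 1.17.1 gave intervals and distances. Depth limits Ctsc most. Intervals and zeros cover counting error only.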

Additional observations from a re-analysis of the deposited data

Results flagged for a closer look

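Cells with fewer than 10 gene counts (or a small volume) entered no comparison, yet all 3 genes were counted there, above the 3 counts that a count of 0 allows. In section 1 these 16828 cells held 2087 Ctsb, 33 Ctsc and 579 Lrp1 counts, or 545, 8.62 and 151 per 10000 gene counts. In section 2 the 69639 such cells held 5947 Ctsb, 95 Ctsc and 2292 Lrp1 counts, or 339, 5.41 and 131 per 10000. In these cells of section 1 and section 2 the mean blank stood at 7.15 and 1.03 per 10000. The highest blank stood at 48.6 and 29.2, above Ctsc in both sections. The Ctsb shares lay between those of hepatocyte-group and macrophage-group cells in both sections. No sample was tested as an outlier, since the group has 2.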

How the results depend on the processing

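The 6 macrophage ratios kept their direction in 64 of 64 recomputations, with mean folds of 1.92 to 23.9. Of these, 39 moved by more than the SD between the sections, which is small with 2. The genes were chosen for this excess and the recomputations reuse the same sections, so the kept direction is no separate support. Letting hepatocytes hold up to 1 macrophage or endothelial marker count leaves the ratios over endothelial cells unchanged by definition. Mean log2 ratios over hepatocytes were 1.74 for Ctsb, 3.83 for Ctsc and 1.06 for Lrp1, and over endothelial cells 1.08, 2.91 and 1.23. In each section alone the former were 1.64 to 1.84, 3.79 to 3.86 and 1.01 to 1.11 and the latter 1.05 to 1.12, 2.69 to 3.12 and 1.21 to 1.25. With own markers reaching hepatocyte markers they were 2.20 (Ctsb), 4.58 (Ctsc) and 1.33 (Lrp1) over hepatocytes and 2.15 (Ctsc) and 1.81 (Lrp1) over endothelial cells. With 3 marker counts they were 1.89 (Ctsb) and 4.31 (Ctsc) over hepatocytes and 1.17 (Lrp1) over endothelial cells. With Clec4f alone they were 1.9996, 3.98 and 1.31 over hepatocytes and 1.37, 3.22 and 1.45 over endothelial cells; with Adgre1 and Csf1r, 1.27 for Lrp1 over endothelial cells. Per cell volume they were 1.98, 4.06 and 1.30 over hepatocytes and 1.19 (Lrp1) over endothelial cells. With at least 20 counts per cell they were 3.55 (Ctsc) and 0.95 (Lrp1) over hepatocytes and 1.03 (Ctsb) and 1.16 (Lrp1) over endothelial cells, where Ctsc gave no value for lack of counts. Within 4 units of the cell centre they were 3.96 (Ctsc) and 1.39 (Lrp1) over hepatocytes and 1.26, 2.45 and 1.80 over endothelial cells. Thinned to 10 counts they were 4.17 (Ctsc) and 1.36 (Lrp1) over hepatocytes and 0.94 (Ctsb) and 1.505 (Lrp1) over endothelial cells. Without marker genes in the totals they were 3.73 (Ctsc) and 0.97 (Lrp1) over hepatocytes and 1.19 (Lrp1) over endothelial cells. A further 2 settings were chosen after seeing the data. In cells of 20 to under 40 counts the ratios were 3.63 (Ctsc) and 0.98 (Lrp1) over hepatocytes and 0.99 (Ctsb) over endothelial cells, again with no value for Ctsc, and with up to 1 macrophage or endothelial marker in hepatocytes 3.58 for Ctsc.

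The 12 calls along the lobule became 6 with DESeq2, 6 with at least 20 counts per cell, 5 with periportal landmarks alone, 20 with a radius of 100 and 0 without the replicate block; the 0 calls by Clec4f became 2 without TMM. The genes themselves passed in none of the 94 refits (lowest adjusted p 0.193, edgeR or DESeq2), and 22 of these turned the sign. Along the lobule Ctsb was -0.0550 with pericentral and Ctsc -0.0839 with periportal landmarks alone. Near macrophages Lrp1 was -0.00668 without TMM, -0.0465 with at least 10 counts, -0.0744 with 3 marker counts, -0.23 with the stricter marker rule and -0.0164 at 15 against 30 units. By Clec4f, with 3 marker counts and the stricter rule, Ctsb was 0.20 and 0.40 and Lrp1 0.28 and 0.40; Ctsc was 0.0299 without TMM, 0.0761 with at least 10 counts, 0.12 with 20 counts per cell and 0.0673 with 3 marker counts. Near erythroid cells Ctsb was 0.0199 without TMM and 0.12 at 30 units, and Lrp1 was -6.58e-05 without TMM, -0.0542 with DESeq2, -0.34 with at least 10 counts, -0.70 with the stricter rule and -0.0216 at 30 units. The cause was not tested.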

Other observations

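Inside macrophage-group cells Lrp1 transcripts lay nearer the cell centre than the average transcript. Within 4 units of the centre lay 44.8% (41.6 to 48.0, exact binomial 95%) of them in section 1 and 39.3% (30.4 to 48.8) in section 2, against 38.7% and 29.7% of all gene transcripts there. In hepatocyte-group cells the Lrp1 shares were 48.8% and 36.2% against 50.7% and 35.7% of all. In endothelial-group cells they were 28.0% and 25.5%, against 36.0% and 28.4% of all. In erythroid-group cells they were 23.0% and 23.9%, against 33.2% and 28.5% of all. Macrophage Ctsb stood at 40.7% and 27.7%, and macrophage Ctsc at 53.3% (41.4 to 65.0) and, from 16 transcripts, 25% (7.27 to 52.4).

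Over tiles of 250 units with at least 20 kept cells, 157 in section 1 and 202 in section 2, the Ctsb level had a median of 498 and 248 per 10000. Pearson's r of the Ctsb level with the share of erythroid-group cells was 0.43 in section 1 and 0.00222 in section 2, a description over tiles that share a library. The r with the share of macrophage-group cells was 0.31 and 0.18 for Ctsc, 0.30 and 0.06 for Lrp1 and 0.13 and 0.18 for Ctsb.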
